A study of Mus musculus and Homo sapiens with 10 samples.

Results

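Replication-dependent histone genes were followed in embryonic stem cells (ESCs) grown with or without vitamin C (vitC). The members were all genes of the mouse expression table whose symbol begins with Hist1h, Hist2h, Hist3h or Hist4h, which gave 68 of 25899 genes. The corresponding names beginning HIST1H to HIST4H in the human table gave 70 of 35720 genes. In mouse, the members comprised 6 linker H1 genes, 19 H2A genes, 18 H2B genes, 12 H3 genes and 13 H4 genes.

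E14 mESCs were cultured in 2i medium and were either left untreated (4 libraries) or given 100 µg/ml vitC for 24 h (4 libraries). Each replicate number stood for a culture label carried by a control and a vitC library alike, namely VC10, VC11, VC35B and VC35C, and the last 2 form what is called here the VC35 set. Primed H9 hESCs (culture label VC43) gave 1 control and 1 vitC library with the same dose and time. The study's methods describe primed cultures of both H9-NK2, a derivative with inducible KLF2 and NANOG transgenes, and plain H9 grown in fibroblast-conditioned medium, whereas the labels name H9 and give the KSR/FGF medium that the methods list for H9-NK2. The labels call the mouse RNA total RNA and the human RNA polyA RNA, and their protocol text gives both an rRNA depletion kit and an mRNA isolation kit without saying which library had which. The study's methods name the rRNA depletion kit for RNA-seq and mention no exception for hESCs.

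Most histone protein is made during DNA replication from compact gene clusters that lack introns. The transcripts of these genes are the known class of animal mRNA that ends in a conserved stem-loop rather than a poly(A) tail. SLBP binds the stem-loop, the U7 snRNP guides the cut downstream of it, and the mRNA is degraded quickly once replication stops. Histone variants such as H2A.Z and H3.3 are encoded elsewhere, carry poly(A) tails and are expressed through the cycle. The level of clustered histone mRNA in RNA-seq therefore depends on how many cells are in S phase, on how much each of them holds, and on whether the library was selected for poly(A), and in bulk RNA fewer cells in S phase cannot be told apart from less histone mRNA per cell.

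The mature 3' end element was visible in the reference transcripts of the members. A search of GENCODE vM21 (GRCm38) for 6 paired bases that start with GG, a loop of 4 bases with T at loop positions 1 and 3, and the matching arm, after the end of the coding part, found it in 46 members. Of the 48 members whose annotated transcript went at least 60 bases past the coding part, 44 had it. The same search found it in 61 of 21856 other protein-coding genes (0.279%). It began between 21 and 58 bases after the coding part, with a median of 31. The following transcripts show the element in capitals on both arms, with the loop and flanking bases in lower case, and show 5 of the 8 forms found, each in a gene described below.
Hist1h1d, linker histone (chr13:23555787-23555802, plus strand): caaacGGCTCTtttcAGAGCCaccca
Hist2h3c1, histone H3 (chr3:96247327-96247342, plus strand): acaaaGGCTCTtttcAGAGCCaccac
Hist1h3g, histone H3 (chr13:23535889-23535904, plus strand): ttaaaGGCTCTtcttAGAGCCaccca
Hist1h1t, testis linker histone (chr13:23696525-23696540, plus strand): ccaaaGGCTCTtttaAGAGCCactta
Hist4h4, histone H4 (chr6:136803998-136804013, minus strand): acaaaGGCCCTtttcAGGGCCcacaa
Hist1h4a, histone H4 (chr13:23760800-23760815, minus strand): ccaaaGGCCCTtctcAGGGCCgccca
The first form, shared by Hist1h1d and Hist2h3c1, was the most frequent, with 26 members from the H1, H2A, H2B and H3 families. Of the H4 genes, 7 carried the form printed for Hist4h4, and the form of Hist1h4a was found in no other member. The members that lacked the element although their transcript ran 60 bases past the coding part were Hist2h2be, Hist1h2bc, Hist1h2bq and Hist1h2br.

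The genes lay in 4 places. On chromosome 13, 54 members fell between positions 21715763 and 23934851, and Hist1h2al, which the annotation classes as a processed pseudogene, lay apart at 51202727 to 51203065. On chromosome 3, 10 members fell between 96219865 and 96270132. Hist3h2ba and Hist3h2a were on chromosome 11, and Hist4h4 was on chromosome 6. The copies resemble each other: in the median member, 24.7% of the 50-base windows of the coding part occurred in no other gene's transcript, and 13 members had no window of their own. H1 genes were the most distinct, with a median of 89.1% of windows unique. The value of most H2A, H2B, H3 or H4 genes can therefore hold reads of near copies, and Hist2h2aa1 and Hist2h2aa2 have identical coding parts. Exceptions were Hist4h4 and Hist2h2be, with 100% of windows of their own, Hist1h2aa with 97.7% and Hist2h4 with 93.9%.

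RefSeq promoters of GRCm38.p6, 250 bases before to 50 bases after the start, were matched for 61 members. A CCAAT box, searched as CCAAT on both strands, was in 52 of them, compared with 37.8% of 26964 other promoters, and was found in all 17 H2A and all 16 H2B promoters but in 3 of 12 H4 promoters. A TATA box, searched as TATAAA on the gene's strand, was in 30 of 61 compared with 8.79% of the others. The octamer of H2B promoters, searched as ATTTGCAT on both strands, was in 13 members, 7 H2A and 6 H2B, compared with 1.71%. In 3 places the same octamer served as a match for an H2A and an H2B gene that face away from each other. The windows below show 2 of these shared places on the strand of the H2B gene, with the octamer in capitals.
Hist1h2bk, shared with Hist1h2ah (chr13:22035783-22035806, plus strand): ttcactttATTTGCATacgaagtt
Hist1h2bg, shared with Hist1h2ae (chr13:23571333-23571356, plus strand): agtcccttATTTGCATagaacctc

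Reads were recovered from the deposited values, which gave between 3354852 and 6921305 gene reads in the mESC libraries and 15367652 and 17188555 in the hESC libraries. Levels are given as reads per 1000000 gene reads of a library (RPM). Naive mESC markers summed to between 5102 and 5760 RPM in the mESC libraries. Primitive endoderm markers summed to at most 8.39 and fibroblast markers to at most 16.8 RPM there, with Twist2 at 0 in every mESC library. In the hESC libraries, human ESC markers summed to 2413 and 2433 RPM. The fibroblast list summed to 1751 and 1632, mostly from COL1A1, which had 1182 and 1098 RPM.

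All 68 mouse members were detected, and 67 had reads in all 8 libraries. The highest read counts in each family, with no correction for length, belonged to Hist1h1a, Hist1h1c and Hist1h1d among linker histones, Hist2h2aa1, Hist1h2al and Hist2h2aa2 for H2A, Hist2h2bb, Hist1h2bq and Hist1h2bc for H2B, Hist1h3e, Hist1h3i and Hist1h3c for H3, and Hist1h4d, Hist1h4a and Hist1h4h for H4. The mean over the 8 libraries ranged from 0.333 RPM for Hist2h2be to 788 for Hist2h2bb. Per kilobase of annotated exon, the family medians of mean levels were 295 RPM for H1, 434 for H2A, 303 for H2B, 567 for H3 and 750 for H4. Annotated exons that run on past the stem-loop, such as the 7425 bases of Hist1h1d, lower a gene's value per kilobase.

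The testis genes and Hist2h2be were among the 6 members with the fewest reads. Hist1h1t, the testis linker histone, had between 1.11 and 3.79 RPM. Hist1h2aa, a testis H2A, had between 4.19 and 7.64 RPM. Hist1h2ba, a testis H2B, was higher, at 63.4 to 95.5 RPM. Hist2h2be, an H2B gene whose transcript can be polyadenylated, had at most 4 reads in any mESC library.

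Together the members took between 1.50% and 2.51% of gene reads in mESCs. The share of all gene reads was 1.88%, 1.86%, 2.31% and 2.51% in the control cultures VC10, VC11, VC35B and VC35C. In the vitC libraries of the same cultures, it was 1.64%, 1.50%, 2.20% and 2.24%. The share was lower with vitC in 4 of 4 pairs, and the means were 2.14% ± 0.32 (SD, n = 4) for control and 1.89% ± 0.38 (SD, n = 4) for vitC. The groups overlapped, since both VC35 vitC libraries were above both VC10 and VC11 control libraries. A sum over members was given no test.

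The share fell into the 5 families in similar proportions in every library. In the VC10 control library, the percentages of gene reads were 0.271% for H1, 0.339% for H2A, 0.433% for H2B, 0.385% for H3 and 0.450% for H4. The H1, H2B, H3 and H4 shares were lower with vitC in 4 of 4 pairs. The H2A share was lower in 3 of 4 pairs, and in VC35B it was 0.406% without and 0.407% with vitC.

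**Figure D1:**
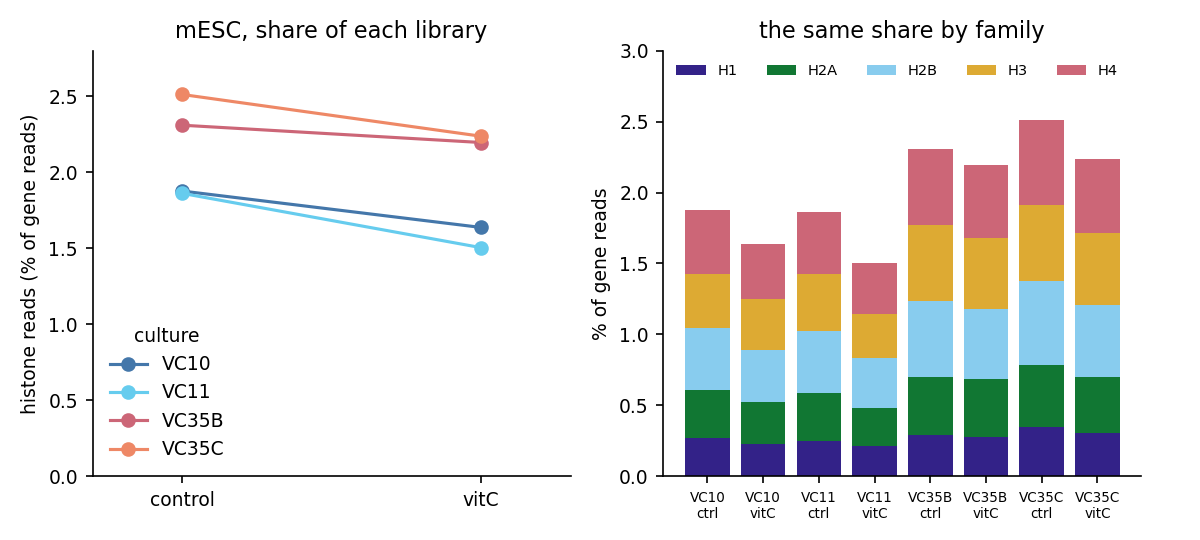
Share of gene reads taken by the 68 members in each mESC library (left, lines join the control and vitC library of a culture; right, the same share stacked by family, in percent of gene reads). Every line runs downwards from control to vitC, and the 4 VC35 libraries, from 2.20% to 2.51%, lie above the 4 of VC10 and VC11, from 1.50% to 1.88%.

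The effect of vitC on each gene was then asked across the 4 control and 4 vitC mESC libraries. Most members lay below 0: 63 of 68 had a negative vitC minus control difference, with a median of -0.15 on the log2 scale of the deposited values, against a median of -0.0020 for all 14631 genes tested, of which 51.0% were below 0. None of the members passed the limma test (adjusted p under 0.05) when culture was left out of the fit, and the smallest member adjusted p was 0.408, for Hist1h2aa. In that fit, 0.342% of all genes passed. At an unadjusted p under 0.05, 1 member was higher and 2 were lower, while 4.48% of all genes were higher and 3.18% lower, and edgeR and DESeq2 on recovered reads also called 0 members.

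When each culture was compared with itself, 47 of 68 members fell with vitC and 0 rose (limma with a replicate block, adjusted p under 0.05), while 4.44% of all genes fell and 6.36% rose in the same fit. All 13 H4 genes fell, as did 14 of 18 H2B genes, 4 of 6 H1 genes, 7 of 12 H3 genes and 9 of 19 H2A genes. With edgeR and the same block, 56 members were lower and 1 was higher, beside 6.07% and 7.24% of all genes. In 51 members the vitC library was lower in 4 of 4 pairs, against 14.4% of all genes. The differences over the 4 pairs ran from -0.32 for Hist2h2bb to 0.17 for Hist1h2aa on the log2 scale of the deposited values. That scale compresses low levels such as those of Hist1h2aa, and edgeR with the block gave -0.34 and 0.55 for these genes. In 0 members were all vitC libraries below all control libraries, which was the case in 1.98% of all genes.

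Hist2h2bb and Hist1h1b showed the clearest decreases. Hist2h2bb, an H2B gene at chr3:96269752-96270132 and the member with the most reads, had 785, 751, 911 and 1073 RPM in control VC10, VC11, VC35B and VC35C. Its vitC libraries had 578, 593, 772 and 840. Every vitC library was below the control of its culture, although the 2 groups overlapped because the VC35 vitC libraries were at the level of the VC10 and VC11 controls.
The log2 difference of Hist2h2bb was -0.32 ± 0.034 (SE, n = 4 pairs) with the block (limma adjusted p 3.48e-06), and -0.32 ± 0.14 without it (adjusted p 0.633).

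Hist1h1b, the linker histone H1.5 (chr13:21779883-21780625), had 447, 422, 499 and 559 RPM in the control libraries and 337, 337, 432 and 450 in the vitC libraries, in the same order. Again the decrease was seen in every culture while the groups overlapped. Its log2 difference was -0.29 ± 0.036 (SE, n = 4 pairs; limma with block, adjusted p 3.39e-05). This gene shares no 50-base window with others, so its decrease was measured on reads of its own.

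The H3 genes of the chromosome 3 cluster and an H2B gene of chromosome 13 followed. Hist2h3c1 (chr3:96246685-96248509) had 268, 275, 345 and 369 RPM in the controls and 220, 201, 312 and 296 with vitC. It was lower in each of the 4 cultures. The block fit gave -0.26 for Hist2h3c1 (adjusted p 0.000353), -0.23 for Hist2h3c2 (adjusted p 0.000394) and -0.22 for Hist1h2bf (adjusted p 0.00069). Hist2h3c1 and Hist2h3c2 have no 50-base window of their own, so their values are not independent.

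Among the other linker histones, Hist1h1a fell by 0.19 (adjusted p 0.0012), Hist1h1d by 0.13 (adjusted p 0.0142) and Hist1h1e by 0.14 (adjusted p 0.0253) in the limma fit with the block. Hist1h1c, which encodes H1.2, had a difference of -0.09 and an adjusted p of 0.11. Hist1h1t had a difference of 0.04 and an adjusted p of 0.769. The core histone genes with the most reads were divided in the block fit. Hist1h4d and Hist1h4a fell by 0.19 and 0.18. Hist1h4h, Hist1h2bq, Hist1h2bc and Hist1h2al also passed, at -0.16, -0.15, -0.15 and -0.13. The H3 genes Hist1h3e, Hist1h3i and Hist1h3c had differences of -0.09, -0.12 and -0.12 that did not pass. Nor did the H2A genes Hist2h2aa1 at -0.11 (limma adjusted p 0.0793) and Hist2h2aa2 at -0.10 (limma adjusted p 0.147).

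A few members lay above 0. Hist1h2aa (chr13:23934462-23934851) had 5.68, 4.82, 5.79 and 4.19 RPM in the controls and 7.64, 7.55, 7.15 and 7.17 with vitC. It was the member whose groups did not overlap, and in 3.31% of all genes the vitC libraries were likewise all above the controls. These values rested on 24 to 44 reads per library. The difference was 0.17 ± 0.058 (SE, n = 4 pairs) with the block (limma adjusted p 0.0612), and edgeR with the block called it (adjusted p 0.0374).

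The other members above 0 were Hist3h2ba at 0.14, Hist2h2be at 0.05, Hist1h1t at 0.04 and Hist3h2a at 0.01 on the log2 scale, and none of them passed with or without the block. Both genes of the chromosome 11 cluster were thus above 0, but the 0.01 of Hist3h2a had an SE of 0.043 with the block. Their signs differed between the culture sets. Hist3h2ba (chr11:58948920-58949533), an H2B gene, had 20.9, 21.2, 28.1 and 32.8 RPM in the controls. With vitC it had 19.4, 17.2, 46.2 and 44.7. It was lower with vitC in VC10 and VC11 and higher in VC35B and VC35C.
Hist3h2a, an H2A gene, had pair differences of -0.08 and -0.04 in VC10 and VC11 and of 0.12 and 0.05 in VC35B and VC35C. Its mean difference in VC35 exceeded that in VC10 and VC11 by 0.14, beside a median of 0.15 over the 19 H2A genes. Hist3h2a has no 50-base window of its own.

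**Figure D2:**
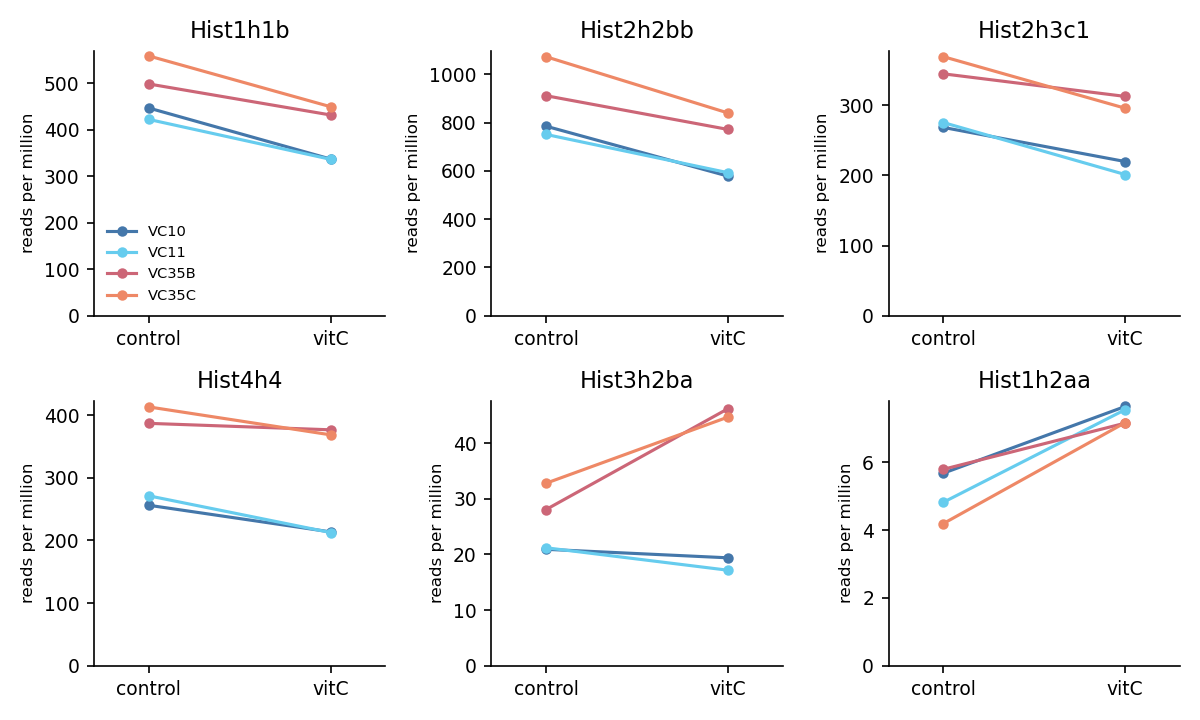
RPM of 6 members in control and vitC libraries, with a line for each culture (each vertical axis starts at 0). Hist1h1b, Hist2h2bb and Hist2h3c1 decrease along every line, Hist4h4 is separated by culture set, Hist3h2ba goes down in VC10 and VC11 and up in VC35B and VC35C, and Hist1h2aa goes up along every line, from between 4.19 and 5.79 to between 7.15 and 7.64.

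Variant histone and cell cycle genes of the same libraries were counted in the same fits. Of all genes, 4.44% fell and 6.36% rose with the block. With the block, 0 of 11 tested variant histone genes rose or fell, and their median difference was -0.04. Of 32 S phase and replication genes, 3 fell and 0 rose: Ccne1, cyclin E1, by 0.19 (adjusted p 0.00501), Pcna, the replication clamp, by 0.14 (adjusted p 0.0151), and Rrm2, a subunit of ribonucleotide reductase, by 0.14 (adjusted p 0.0305). Of 18 G2 and mitosis genes, 7 fell and 0 rose, among them Ccnb2, cyclin B2, by 0.24 (adjusted p 0.00156) and Top2a, a topoisomerase, by 0.17 (adjusted p 0.00106).
The summed level of the G2 and mitosis list was 4382 to 4760 RPM in controls and 3845 to 4371 with vitC. Of 19 genes of histone mRNA transcription, processing and decay, 1 fell and 0 rose, a count near the share of all genes that fell. That gene was Zfp473, a U7 snRNP partner, by 0.20 (limma adjusted p 0.0233). The stem-loop binding protein gene Slbp had a difference of 0.01. Of 8 histone chaperone genes, Nasp, which binds H1 and H3-H4, fell by 0.20 (adjusted p 0.00501). Of 5 cell cycle inhibitor genes, Cdkn1a rose by 0.13 (adjusted p 0.0468) and 0 fell. The part that cell cycle distribution plays in the histone values was not tested.

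Some markers of cell state moved in the same block fit, where 4.44% of all genes fell and 6.36% rose. Of 9 naive mESC markers, 4 fell with vitC, namely Tdgf1 by 0.40, Nanog by 0.25, Zfp42 by 0.13 and Pou5f1 by 0.12, and Tfcp2l1 rose by 0.11. The list summed to 5446 to 5760 RPM in controls and 5102 to 5698 with vitC. Of 3 tested primitive endoderm markers, Pdgfra rose by 0.23 (adjusted p 0.026) from a list that summed to at most 8.39 RPM, with Gata6 not tested, and 0 of 3 primed and 0 of 3 tested fibroblast markers passed. Their part in the histone values was not tested.

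The vitC difference was next compared between the culture sets. Within VC10 and VC11, the median vitC minus control difference of the 68 members was -0.22, and 3 members, Hist2h2bb, Hist1h1b and Hist2h3c1, passed as lower in that smaller limma fit, beside 0.191% of all genes. Within VC35B and VC35C, the median was -0.09 and 0 members passed, with 5 lower at an unadjusted p under 0.05, as were 5.32% of all genes. By pair, the medians were -0.18 in VC10, -0.27 in VC11, -0.04 in VC35B and -0.15 in VC35C, and 66, 65, 53 and 62 members respectively were below 0.
The difference between sets was tested gene by gene with an interaction term. The estimate was above 0, meaning less decrease or more increase in VC35, in 66 of 68 members, with a median of 0.12, but 0 members passed limma after adjustment, compared with 0.0889% of all genes. At an unadjusted p under 0.05, 16 members were above 0 in the fit of all 4 pairs, while 3.23% of all genes were. The size of the estimates depended on single pairs. Leaving out VC10, VC11, VC35B or VC35C gave member medians of 0.17, 0.08, 0.07 and 0.17, with 64, 57, 60 and 64 members above 0. The rRNA share of repeat counts also moved in opposite directions in the sets: it was 51.5% and 45.1% without and 44.2% and 42.0% with vitC in VC10 and VC11, and 60.5% and 59.99% without and 63.1% and 61.6% with vitC in VC35B and VC35C. Its part in the histone values was not tested.
Hist3h2ba had the interaction closest to the threshold, 0.47 ± 0.10 (SE, n = 4 pairs; limma adjusted p 0.0766). It was called by edgeR on recovered reads (adjusted p 0.0222), which called 0.109% of all genes in that direction. Leaving out a pair gave estimates of 0.39 to 0.56, and limma called it without VC35C (adjusted p 0.0117), where 1 VC35 pair is left and is assumed to vary like those of the other set, but in 0 of the 3 fits that left out another pair (adjusted p 0.438 to 0.882).

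**Figure D3:**
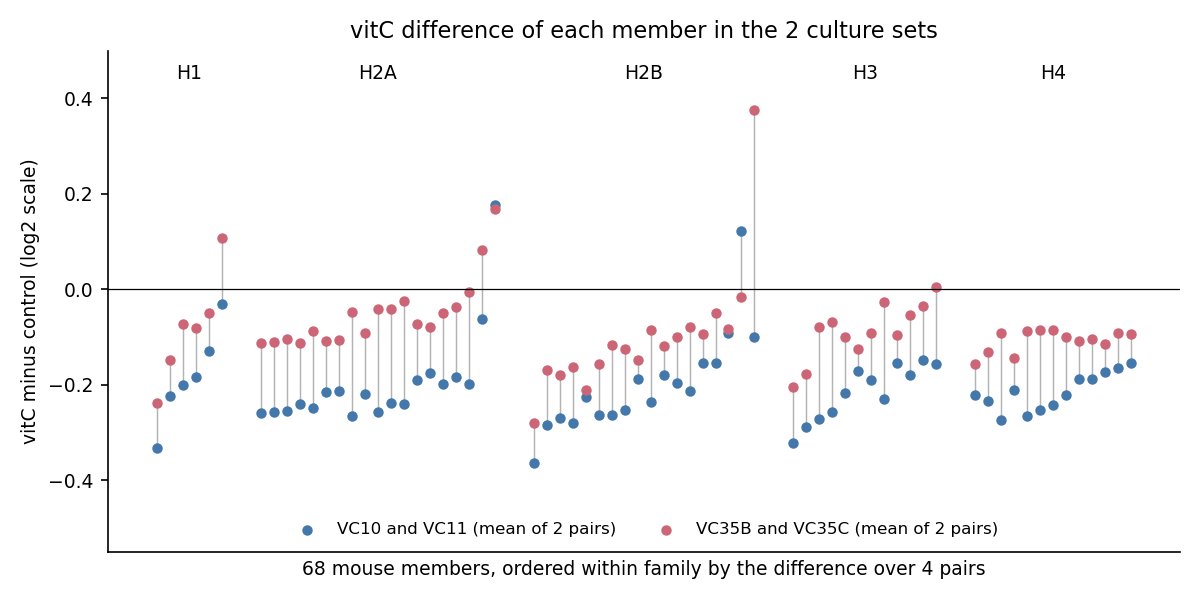
vitC minus control difference of each of the 68 mouse members on the log2 scale of the deposited values, as the mean of the 2 pairs of VC10 and VC11 (blue) and of VC35B and VC35C (red), joined by a grey line and ordered within families. Most points are below 0, with medians of -0.22 (blue) and -0.09 (red), and Hist3h2ba is the H2B gene whose red point lies far above 0.

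The culture sets differed for nearly every member. With control and vitC averaged within each culture, 64 of 68 members were higher in VC35B and VC35C than in VC10 and VC11, and 0 were lower (limma, adjusted p under 0.05, 2 against 2 cultures). In that comparison, 14.7% of all genes were higher in VC35. The median member difference was 0.37 on the log2 scale, while the median over all genes was -0.0081. In 62 members the 4 VC35 libraries were all above the 4 libraries of VC10 and VC11, as in 15.3% of all genes.

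The H3 family had the highest median, although differences between families were not tested. All 12 H3 genes were higher in VC35, with a median of 0.48, beside medians of 0.31 for H1, 0.35 for H2A, 0.38 for H2B and 0.37 for H4. The largest difference on the deposited scale, which compresses low levels, was nevertheless in an H4 gene. In mean RPM, the H2B gene Hist3h2ba went from 19.7 in VC10 and VC11 to 37.9 in VC35, a larger relative change than that of this H4 gene, from 238 to 386. Hist4h4 (chr6:136801553-136804415), which lies alone outside the other clusters, had 256, 271, 387 and 413 RPM in control VC10, VC11, VC35B and VC35C and 214, 213, 377 and 369 in the vitC libraries.
All VC35 libraries exceeded all others, and the set difference was 0.63 ± 0.057 (SE, n = 2 cultures a set; limma adjusted p 6.25e-06). All 50-base windows of its coding part are its own.

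On the deposited scale, the next largest differences by limma were in Hist1h3g at 0.57 (adjusted p 1.74e-05), Hist1h2bh at 0.54 (adjusted p 5.61e-05) and Hist1h3d at 0.54 (adjusted p 2.59e-05). Hist3h2ba at 0.53 (limma adjusted p 3.54e-05) and Hist1h3h at 0.52 (limma adjusted p 2.98e-05) followed. Hist1h3g (chr13:23535422-23535951) had 267 and 278 RPM in the VC10 and VC11 controls and 390 and 396 in the VC35 controls. In the vitC libraries it had 238, 207, 358 and 383, so the sets did not overlap.
The members that did not pass were Hist1h1c at 0.21 (adjusted p 0.0548), Hist1h1t at 0.15 (adjusted p 0.177), Hist2h2be at 0.13 (adjusted p 0.192) and Hist1h2aa at -0.03 (adjusted p 0.738). Hist1h1t, Hist2h2be and Hist1h2aa were also the members with the fewest reads. Leaving out VC11 lowered the count of members higher in VC35 to 43, where 4.51% of all genes were higher. The limma fit with no filter on low values called 8 members and 0.259% of all 25899 genes.

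Replication genes were also higher in VC35. Of 32 S phase genes, 20 were higher in VC35 and 0 were lower, with a median of 0.19, led by Rfc4, a clamp loader subunit, at 0.42, Ccne1 at 0.41 and Gins2 at 0.38. Of 18 G2 and mitosis genes, 9 were higher, including Cdk1 at 0.33, and 2 were lower, Cenpf at -0.36 and Mki67 at -0.30. Among 11 tested variant histone genes, 4 were higher, with H2afz (H2A.Z) at 0.41 and H2afx at 0.27, and H2afy (macroH2A) was lower at -0.23.
Of 19 genes of histone mRNA synthesis and decay, 2 were higher and 2 lower, beside 14.7% and 18.1% of all genes: Slbp at 0.17 and Ncbp2, a cap-binding subunit, at 0.19 were higher, and Zcchc6 and Zcchc11, terminal uridylyltransferases, were lower at -0.27 and -0.26. Of 8 histone chaperone genes, 4 were higher and 1, Atrx, was lower.

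Of 5 cell cycle inhibitor genes, 1 was higher in VC35 and 1 lower, with a median of 0.08, beside 14.7% and 18.1% of all genes. Cdkn1c, which encodes p57, was higher at 0.18 (limma adjusted p 0.0445), and Cdkn1a, which encodes p21, was lower. Cdkn1a had 318 and 256 RPM in the VC10 and VC11 controls and 128 in both VC35 controls. The vitC libraries had 334, 311, 141 and 134, so the sets were far apart in both treatments. The set difference of Cdkn1a was -1.07 ± 0.066 (SE, n = 2 cultures a set; limma adjusted p 3.78e-07).

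Some markers of cell state differed between the sets as well, where 14.7% of all genes were higher in VC35 and 18.1% lower. Of 9 naive mESC markers, 3 were higher in VC35 (Tdgf1 at 0.74, Pou5f1 at 0.42 and Zfp42 at 0.21) and 3 were lower (Sox2 at -0.35, Klf4 at -0.35 and Tfcp2l1 at -0.25). Of 3 primed markers, Otx2 at 0.67 and Fgf5 at 0.24 were higher. Fgf5 was near the floor, with 0 RPM in every VC10 and VC11 library and at most 0.668 RPM in VC35. Of 3 tested primitive endoderm markers, Pdgfra was lower at -0.24, and of 3 tested fibroblast markers, Thy1 was higher at 0.84 and Col1a2 lower at -0.96. Levels were low: no library had more than 19.4 RPM of Otx2, 5.59 of Pdgfra, 16.8 of Thy1 or 10.4 of Col1a2. The part of the cell state markers in the histone difference was not tested.

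Library content also followed the culture sets. rRNA made up 42.0% to 51.5% of the repeat counts in the VC10 and VC11 libraries and 59.99% to 63.1% in the VC35 libraries. In hESCs the rRNA classes were listed at 0. Genes with under 1 kb of annotated exon that were not members had a median set difference of 0.04, and longer genes had one of -0.01. The RNA Neat1, part of whose transcripts lack a poly(A) tail, was lower in VC35 by 0.49 on the log2 scale, and Malat1 differed by -0.09 (adjusted p 0.563). The part of library preparation in the histone difference was not tested, and the set cannot be told apart from anything else that differed between these cultures.

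**Figure D4:**
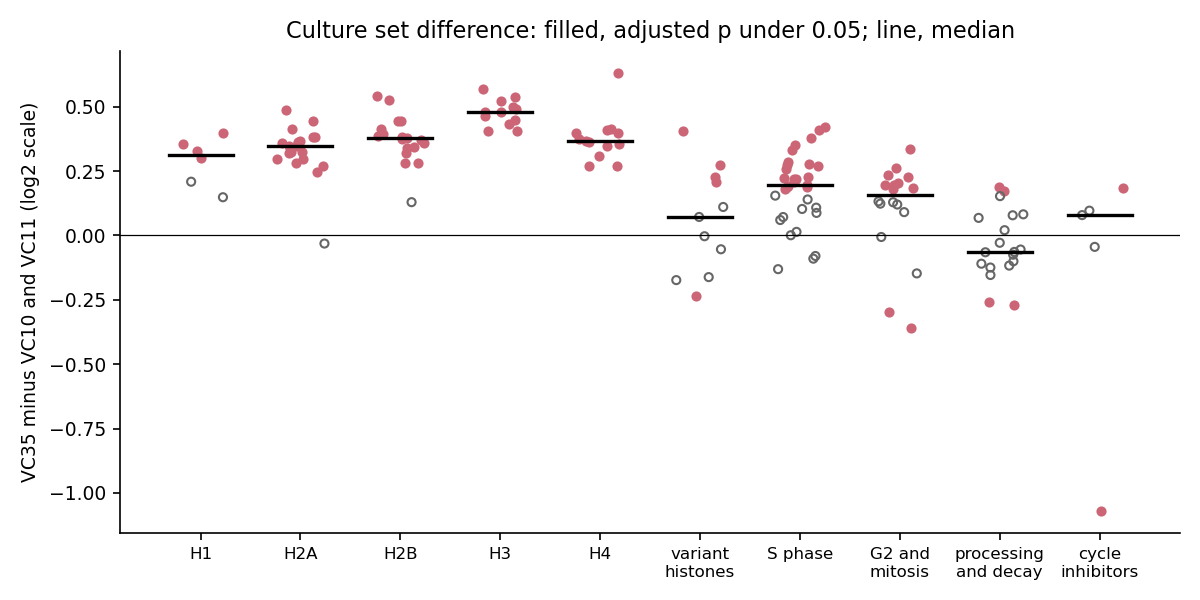
Difference between VC35 and VC10 with VC11 on the log2 scale for each member by family and for 5 lists of other genes (filled points, adjusted p under 0.05; open points, not past it; black lines, medians). The family medians run from 0.31 to 0.48, the S phase list has a median of 0.19, and Cdkn1a is the point at -1.07.

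In hESCs, clustered histone reads were scarce. The 70 members held 1092 of 15367652 gene reads in the control and 1341 of 17188555 in the vitC library, or 0.00711% and 0.0078%, against 1.50% to 2.51% in mESCs. No member read was recovered in either library for 22 genes, 25 genes had at least 10 reads over both libraries, and the median was 3.5 reads. For a gene with 0 reads, 3 reads in the control library would be 1.95e-05% of its reads.
The variant histones were well represented in the same hESC libraries, at 3107 and 3317 RPM, compared with 1787 to 2258 in mESCs. H2AFZ alone had 965 and 1057 RPM. The species, cell line, medium and RNA labels all differ between these tables and cannot be told apart.

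HIST3H2A, an H2A gene, was the hESC member with the most reads, with 540 reads (35.1 RPM) in the control and 631 reads (36.7 RPM) with vitC. The other 69 members together had 552 and 710 reads. The H2B genes HIST1H2BN and HIST1H2BK followed with 99 and 79 reads in the control and 100 and 98 with vitC. HIST1H2AC, an H2A gene, had 40 and 44 reads, and HIST1H1C, the human H1.2 gene, had 27 and 47.
The H3 genes with the most reads had 29 and 32 (HIST1H3G) and 22 and 14 (HIST1H3H, tied in total with HIST1H3J at 12 and 24). Among H4 genes, HIST1H4C had 18 and 11 reads. The H3 and H4 families held 67 and 47 of the hESC control reads, and H2A held 637, of which 540 were from HIST3H2A. In mESCs, H3 and H4 had the highest medians per kilobase, a measure that was not computed for hESCs.

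The vitC to control log2 ratio of summed member reads in hESCs was 0.13 (95% Clopper-Pearson interval 0.02 to 0.25, counting error only). With 1 library a group there is no replicate check and no test. Without HIST3H2A the ratio was 0.20 (0.04 to 0.36). HIST3H2A itself had a ratio of 0.06 (-0.10 to 0.23), HIST1H2BN of -0.15 (-0.56 to 0.27), HIST1H2BK of 0.15 (-0.29 to 0.60) and HIST1H1C of 0.64 (-0.07 to 1.38), so that each of these intervals spans 0. Among the 48 members with reads, 4 had an interval wholly above 0 and 0 had one wholly below it. The share of all hESC genes with such intervals was not counted, so this cannot be called unusual. These 4, named after their values were seen, were HIST1H2AM with 0 and 15 reads (lower limit 1.68), HIST1H2AI with 1 and 11 (0.52), HIST1H3F with 0 and 7 (0.37) and HIST1H2AL with 5 and 19 (0.30).

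**Figure D5:**
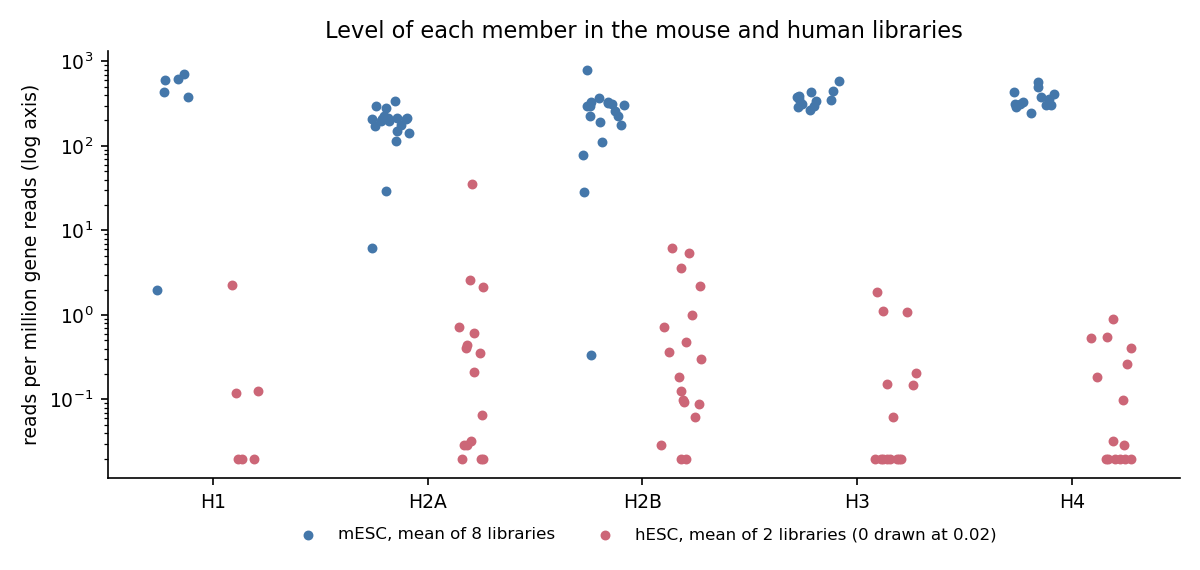
RPM of each member by histone family in mESC (blue, mean of 8 libraries) and hESC (red, mean of 2 libraries) on a log axis, with values of 0 drawn at 0.02. All mESC members but Hist1h1t, Hist1h2aa and Hist2h2be lie above 10 RPM, while HIST3H2A is the hESC member that does.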

How the data were processed

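RNA-seq of 8 E14 mESC and 2 H9 hESC libraries was analysed. The authors trimmed the reads, aligned them (mm10 for mouse, hg38 for human) and obtained counts with SQuIRE, and the submitters' processing notes list Trim Galore, HISAT2 and DESeq2 without versions. The gene tables deposited by the authors hold variance-stabilised values on a log2 scale. The repeat tables deposited by the authors hold expected counts, of which the rRNA share was used. Of the repeat tables, 4 other mouse and 5 other human measurement columns were left aside. Because variance stabilisation compresses low values, differences of genes with few reads are understated.

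The transformation was inverted, taking the lowest value as 0 and the smallest step of a library as 1 read. All 116385 mouse and 38034 human values above the lowest came out whole within 0.01 (100%). RPM values are relative to the recovered gene reads of a library. Totals ran from 3354852 to 6921305 in mESCs and were 15367652 and 17188555 in hESCs. Intervals cover counting error only.

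limma 3.58.1 (R 4.3.3, eBayes with trend) was fitted to the deposited values of the 14631 genes that exceeded the table minimum in 4 or more libraries, with Benjamini-Hochberg adjustment over all of them and a threshold of 0.05. edgeR 4.0.16 (quasi-likelihood) and DESeq2 1.42.0 on recovered reads were alternatives. Culture sets were compared on culture means, and the interaction on the differences of pairs. The replicate numbers pair the libraries, since a number stands for the same culture label in both groups. Deviations of same-numbered libraries from their group means correlated over genes at 0.730, 0.674, 0.626 and 0.765 for replicates 1 to 4. The highest correlation with another number was 0.665, 0.575, 0.574 and 0.585 in the same order, so much of the correlation was not particular to the pair. Simulated data held 200 well-covered genes changed 2-fold among 14631, and no other difference between cultures. The limma fits for vitC, with and without the block, and for the set recovered 100% of them. edgeR, DESeq2, the interaction and changes as small as the vitC differences of the members were not simulated, so their recovery is not known.

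The members and gene lists were chosen with earlier results of these data known. Genes named were the 3 members of each family with the highest mean value, the members past the threshold in the vitC fits (up to 5 a direction with the block), the 6 largest set differences, linker, testis and non-Hist1 members given by name, the hESC members with the most reads, up to 4 genes of each other list by adjusted p and, added later, the cell state markers that passed. All 68 mouse symbols were matched to GENCODE vM21, and human symbols were not matched to an annotation. The labels do not say how far the cultures were separate, so p-values measure the spread between these cultures.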

Additional observations from a re-analysis of the deposited data

How the results depend on the processing

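No member passed for vitC without the block under the other filters, quantile scaling, no trend, edgeR, DESeq2 or any left-out library. The count of members lower with vitC was 47 with the replicate block, 56 with edgeR and the block, and 3 in replicates 1 and 2 alone, and the count higher was 1 with edgeR and the block. Fits without 1 library gave 0 members either way and medians of -0.23 to -0.07. Members higher in VC35 numbered 8 with no filter, and 43 to 65 without 1 culture, with medians of 0.35 to 0.41. For vitC by set, edgeR called 1 member, and leaving out a pair gave 0 to 1, with medians of 0.07 to 0.17. The cause of these shifts was not tested. Among the 31 named mouse members, alternatives other than left-out libraries gave a vitC call without a change of sign in 43 cases. Some of these members were named because they passed with the block, so such calls are no separate check. Alternatives of this kind lost a set call in 27 cases, and left-out cultures lost it in 19. The mean shares of reads moved by less than 1 SD under both other denominators. That SD holds the spread between culture sets, so this does not check the vitC difference. Without the 20 genes with most reads, the control shares were 1.98%, 1.96%, 2.43% and 2.64% for replicates 1 to 4. The vitC shares were then 1.73%, 1.59%, 2.31% and 2.35%.

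Near 0, signs turned for Hist1h1t (-0.031 in replicates 1 and 2), Hist2h2be (-0.016 in replicates 3 and 4), Hist1h3h (0.0047 in replicates 3 and 4), Hist3h2ba (-0.10 in replicates 1 and 2) and Hist3h2a (-0.062 in replicates 1 and 2, and -0.0087 after quantile normalization). Without 1 library, the vitC difference ranged from -0.030 to 0.098 for Hist1h1t, -0.22 to 0.0042 for Hist1h3c, -0.18 to 0.022 for Hist1h3e, -0.18 to 0.052 for Hist1h3h, -0.0061 to 0.092 for Hist2h2be and -0.083 to 0.10 for Hist3h2a, and the set difference of Hist1h2aa from -0.065 to 0.0021. In hESCs, the median difference of deposited values, which are compressed, was 0.0064.

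Depth limits the rarest genes and every hESC value per gene. Copies share reads, so the 68 members are not 68 independent observations. The cultures numbered 4 in all, 2 a set.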
